A study of Mus musculus with 2 samples.

Results

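Long noncoding RNAs that lie antisense to a protein-coding gene, or start beside one on the opposite strand, were examined in long-read RNA sequencing of mouse hippocampus. The set holds every annotated autosomal gene that the GENCODE M21 annotation types as antisense or as bidirectional promoter lncRNA and that had 10 or more reads over both libraries. It has 138 genes, 111 antisense and 27 bidirectional, of 3103 annotated autosomal genes of these types, 2913 antisense and 190 bidirectional. The members were thus selected on their summed read counts, and their levels are given as a description. The mice, labelled male, were 6 months old, of strain B6NCrl on a C57BL/6 background, with no treatment labelled and no second condition. RNA of the hippocampus was sequenced in 2 libraries of 1 group, called replicate 1 and replicate 2. The labels number the libraries as biological replicates 1 and 2 and give them separate biosamples, but 1 donor identifier. Whether 2 animals were sampled is thus not known, and a difference between the libraries may be technical.

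An antisense transcript is read from the strand opposite to another gene, so its sequence is complementary to that gene wherever their exons overlap. A bidirectional promoter lncRNA starts close to the start of a coding gene and runs the other way, from a promoter region that both share. Some such RNAs act on their neighbour in cis, as Kcnq1ot1 does in imprinting. For most of the genes below, known only by a clone or a Gm number, no role is stated here. A long read follows 1 transcript through its introns, so spliced reads can be told from unspliced ones. Unspliced here means that the read was placed on a model of 1 exon. Such a read can also be a part of a spliced RNA that lies within 1 exon. Each read counts 1 transcript, so levels are given in CPM, the count in a library scaled to 1000000 reads, without correction for length. Whether the chance of a transcript being read depended on its length was not tested. Comparisons between genes are thus of read counts.

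The starts of 17 members lay within 1000 bases upstream of the start of a coding gene on the opposite strand, and for 12 of these pairs the DNA between both annotated starts was at hand. It is shown for 5 pairs because this interval is the shared promoter region that defines the arrangement. Each runs 5′ to 3′ on the strand of the lncRNA, from the base after the coding gene's start to the base before the lncRNA's start, from RefSeq promoters of build GRCm38.p6. Capitals mark the motifs searched on both strands: the GC box (GGGCGG), the CCAAT box (CCAAT), an ETS motif (CCGGAAG), the NRF1 core (GCGCATGC) and a TATA motif (TATAAA). Neighbouring or overlapping matches run together as 1 stretch of capitals.
2810013P06Rik and Ankrd11, chr8:123042278-123042465, plus strand: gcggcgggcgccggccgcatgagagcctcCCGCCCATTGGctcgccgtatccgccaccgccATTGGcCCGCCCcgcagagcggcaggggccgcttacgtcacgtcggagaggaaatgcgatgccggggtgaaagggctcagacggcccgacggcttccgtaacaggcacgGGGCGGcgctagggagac
Cep83os and Cep83, chr10:94688577-94688653, minus strand: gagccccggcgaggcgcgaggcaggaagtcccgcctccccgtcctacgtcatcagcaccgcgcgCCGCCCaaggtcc
0610009L18Rik and Actg1, chr11:120348543-120348677, plus strand: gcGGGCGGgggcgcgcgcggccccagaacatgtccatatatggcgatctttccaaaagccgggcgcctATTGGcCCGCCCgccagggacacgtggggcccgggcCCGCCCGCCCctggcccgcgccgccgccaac
2610306M01Rik and Aak1, chr6:86849441-86849516, minus strand: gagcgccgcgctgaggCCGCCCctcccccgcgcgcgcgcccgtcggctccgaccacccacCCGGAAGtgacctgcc
2810029C07Rik and Mark3, chr12:111574403-111574522, minus strand: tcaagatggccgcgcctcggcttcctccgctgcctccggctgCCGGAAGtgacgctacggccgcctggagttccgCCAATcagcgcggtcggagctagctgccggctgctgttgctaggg
All of these are GC-rich. Over the 12 intervals the GC content ran from 56.7% to 82.1%, with a median of 74.7%, against a median of 52.4% for the 250 bases before the start of all 32851 RefSeq promoters. The intervals were 15 to 228 bases long, and for GC content the promoters were not cut to these lengths, so the medians are of unlike windows. The GC box stood in 9 of 12 intervals, and in 4.43% to 32% of all promoters cut to the same lengths. The CCAAT box stood in 6 of 12 (1.65% to 31.9% of all promoters) and the ETS motif in 3 of 12 (0.804% to 6.67%). Neither the NRF1 core (0.213% to 2.18%) nor the TATA motif (0.377% to 11.3%) was found, which says only that these letters are not in these windows.

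In the spliced members, the junctions are the part of the RNA that tells a read of the lncRNA from an unspliced read of the same locus. The join of the first and second exon is shown for 6 members whose annotated spliced transcript was read in both libraries, with the last 20 bases of exon 1 in lower case and the first 20 of exon 2 in capitals, from the GENCODE M21 transcripts.
Tug1-201: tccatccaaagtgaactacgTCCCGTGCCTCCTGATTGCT
Ndufb1-ps-203: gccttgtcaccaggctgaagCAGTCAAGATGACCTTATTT
Cep83os-201: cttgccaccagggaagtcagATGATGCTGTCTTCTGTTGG
Sp3os-201: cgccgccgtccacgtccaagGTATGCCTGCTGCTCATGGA
9330151L19Rik-201: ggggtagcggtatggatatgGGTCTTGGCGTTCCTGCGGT
Dlx6os1: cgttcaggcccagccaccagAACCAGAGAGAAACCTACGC
Ndufb1-ps-203 had 187 reads in replicate 1 and 131 in replicate 2, and Tug1-201 had 61 and 26 in the same libraries. Sp3os-201 had 32 reads in replicate 1 and 23 in replicate 2. The Dlx6os1 transcript, the scarcest of the 6, had 2 reads in replicate 1 and 3 in replicate 2.

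The members were scarce RNAs. They held 3270 reads in replicate 1, 0.246% of its 1330153 reads (exact Clopper-Pearson 95% interval 0.237% to 0.254%), and 2679 reads in replicate 2, 0.196% of its 1366252 reads (0.189% to 0.204%). Such intervals cover counting error only. The median member had 19 reads over both libraries, 26 members had 50 or more and 11 had 100 or more. The 5 members with most reads held 33.4% of all member reads, and 137 of 138 members had a read in both libraries. Just inside the threshold stood 15 genes with 10 reads, and just outside it 15 with 9. A total of 787 genes of these types had 1 to 9 reads, 2073 reads together, and 2178 had none. The summed level of 12 choroid plexus markers was 14195 CPM in replicate 1 and 392 CPM in replicate 2, with all 12 higher in replicate 1 and none at 0. Hippocampal neuron markers together reached 2708 CPM in replicate 1 and 3379 in replicate 2. Astrocyte markers reached 2782 and 3050 CPM, and oligodendrocyte markers 4907 and 6644 CPM, in the same libraries.

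The members' counts were made up of 3 kinds of read. Spliced reads held 37.5% of member reads in replicate 1 (35.9% to 39.2%) and 42.4% in replicate 2 (40.5% to 44.3%). Reads placed on an annotated single-exon transcript held 8.44% in replicate 1 and 11.7% in replicate 2. The other single-exon reads, unspliced and matching no annotated transcript in full, held 54% in replicate 1 (52.3% to 55.8%) and 45.9% in replicate 2 (44% to 47.8%). Most of these were of the class that TALON, the program that placed the reads on transcript models, calls genomic, which held 53.9% of member reads in replicate 1 and 43.3% in replicate 2. In protein-coding genes with the same minimum, the other single-exon kind held 12% of reads in replicate 1 and 9.18% in replicate 2, and in lincRNA genes 28.5% and 22% in the same order. Across whole libraries, single-exon models held 24.5% of reads in replicate 1 and 19.4% in replicate 2.

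**Figure D1:**
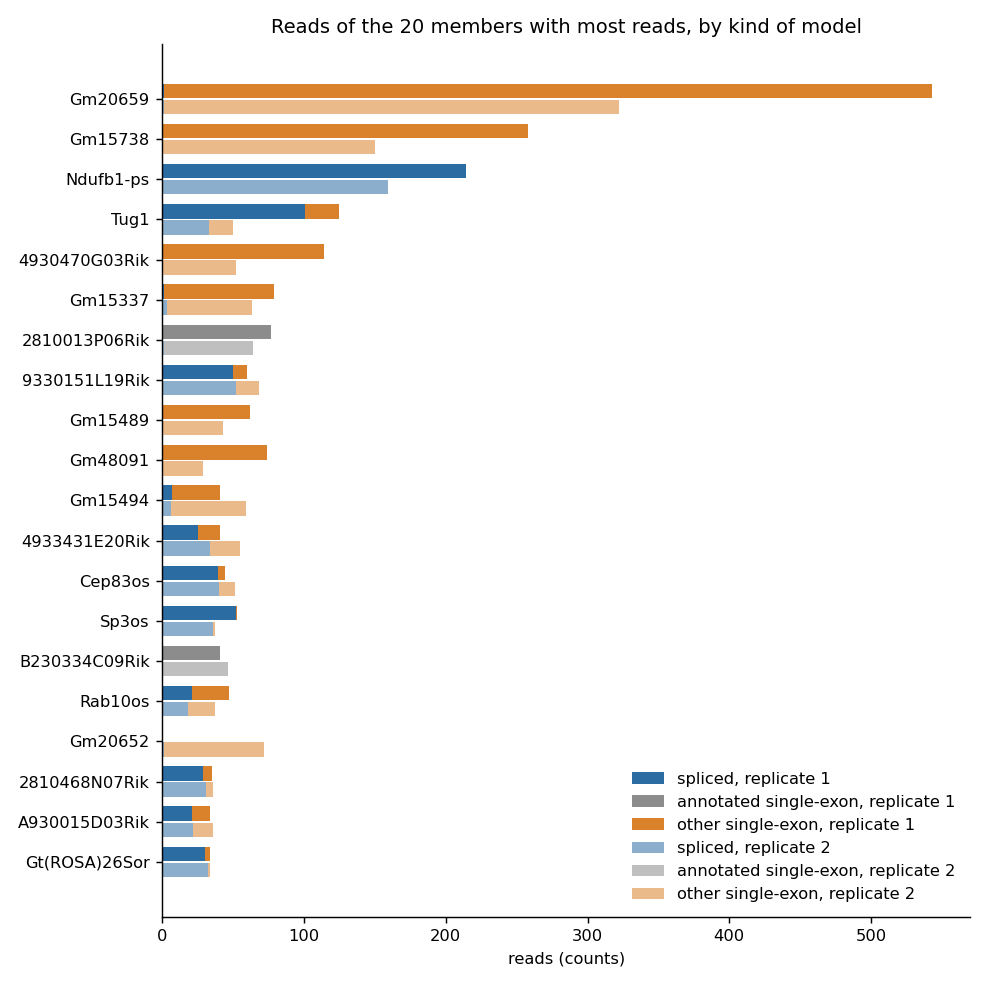
Reads of the 20 members with most reads (horizontal axis, counts), with replicate 1 as the upper, darker bar of each pair and replicate 2 as the lower, paler bar; colours give the kind of model. Gm20659, Gm15738 and 4930470G03Rik are made of other single-exon reads, Ndufb1-ps of spliced reads, and Gm20652 has a bar in replicate 2 alone.

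By gene, 78 members had 50% or more of their reads spliced, 62 antisense and 16 bidirectional. That is 56.5% of members, against 66.2% of lincRNA genes and 83.9% of protein-coding genes with the same minimum. Summed over reads, members and lincRNA genes stood in the other order. Spliced reads held 17.5% of lincRNA reads in replicate 1 and 19.9% in replicate 2, against 37.5% and 42.4% of member reads. In 40 members, 38 antisense and 2 bidirectional, the other single-exon kind held 50% or more, and in the remaining 20 members annotated single-exon transcripts did. All reads were spliced in 17 members, and 38 members had no spliced read. Spliced reads numbered 2 or more in each library for 79 members. The median member had 65% of its reads spliced.

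Among the spliced members, Ndufb1-ps led. It is named as a pseudogene of Ndufb1, a subunit gene of respiratory complex I, and is typed bidirectional (chr12:101968090-101977068, minus strand, mm10). All of its 214 reads in replicate 1 and 159 in replicate 2 were spliced, a level of 139 ± 31.5 CPM (mean ± SD, n = 2). Its partner across the shared start region, Cpsf2, which encodes a factor of messenger RNA cleavage and polyadenylation, had 57 reads in replicate 1 and 62 in replicate 2. Ndufb1-ps thus had more reads than Cpsf2 in both libraries. Its noncoding type is that of M21, and whether its reads code for protein was not examined.

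Tug1, a widely expressed lncRNA (chr11:3639785-3649673, minus strand), had 125 reads in replicate 1 and 50 in replicate 2, of which 101 and 33 were spliced. The coding gene that starts across from it, Morc2a, an ATPase gene of chromatin silencing, had 9 reads in replicate 1 and 3 in replicate 2. The annotated spans overlap at their 5′ ends by 483 bases. Sp3os, which overlaps the start of the transcription factor gene Sp3, had 53 reads in replicate 1 and 37 in replicate 2, all but 1 spliced in each library, and Sp3 had 38 and 46 in those libraries. Which of this pair had more reads differed between the libraries, a shift in balance that did not pass Fisher's exact test (adjusted p = 0.486).

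Cep83os starts 78 bases from Cep83, a gene for a protein of the centriole's distal appendages. It had 44 reads in replicate 1 and 51 in replicate 2, 39 and 40 of them spliced, and Cep83 had 21 and 26. The level of the lncRNA was 35.2 ± 3.0 CPM (n = 2), and it exceeded its partner in both libraries. Gt(ROSA)26Sor, the transcript of the locus widely used for transgene insertion, had 34 reads in each library, 91.2% of them spliced. 2810468N07Rik, which overlaps the start of Sox8, had 35 reads in replicate 1 and 36 in replicate 2, against 24 and 23 for Sox8, a transcription factor gene.

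4933431E20Rik, with 12 annotated transcripts, had 41 reads in replicate 1 and 55 in replicate 2, and its overlapping partner Eps8l3 had none in either library. Gm40578 had 25 reads in replicate 1 and 30 in replicate 2, nearly all spliced, against 0 and 1 for Tnfaip2. Trmt61b, which M21 types as antisense although it carries the name of a tRNA methyltransferase gene, had 32 reads in replicate 1 and 28 in replicate 2, against 0 and 3 for Spdya. Rab10os, antisense to the 3′ part of the small GTPase gene Rab10, was mixed: 21 of 47 reads were spliced in replicate 1 and 18 of 37 in replicate 2. A930015D03Rik overlaps the 3′ end of the histocompatibility gene H2-T22 and shared 44.2% of its 25-base words with the antisense gene BC023719. Its 34 reads in replicate 1 and 36 in replicate 2 are thus uncertain between the copies.

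Single-exon transcripts of the annotation led 20 members. 2810013P06Rik starts 189 bases from Ankrd11, a gene for a chromatin regulator, and had 77 reads in replicate 1 and 64 in replicate 2, a level of 52.4 ± 7.81 CPM (n = 2). All but 1 were placed on its only annotated transcript, and Ankrd11 had 90 reads in replicate 1 and 106 in replicate 2. B230334C09Rik had 41 reads in replicate 1 and 46 in replicate 2 on an annotated transcript of 8927 bases, and Zbtb11os1 had 33 in each library. A read placed on an annotated single-exon transcript carries the annotated boundaries in the deposited models, so its true length is not known here. The annotated Kcnq1ot1 transcript, for one, is listed at 93092 bases.

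Of the 5 members with most reads, Ndufb1-ps and Tug1 were mostly spliced and the other 3 were almost wholly of the other single-exon kind. Gm20659 (chr11:101971143-101971859, plus strand) lies within Dusp3, a dual-specificity phosphatase gene, and 604 of its bases are complementary to Dusp3 exons. It had 543 reads in replicate 1 and 322 in replicate 2, of which 1 in each was spliced, a level of 322 ± 122 CPM (n = 2). Dusp3 itself had 561 reads in replicate 1 and 377 in replicate 2. Gm15738, which overlaps the 3′ end of Mrtfb, a gene for a coactivator of serum response factor, had 258 reads in replicate 1 and 150 in replicate 2, none spliced, and Mrtfb had 320 and 185. All of the 114 reads of 4930470G03Rik in replicate 1 and of its 52 in replicate 2 were unspliced, and the overlapping zinc finger gene Zscan26 had 113 and 64. Over both libraries, the ratio of reads counted for the member to coding reads was 0.922 for Gm20659, 0.808 for Gm15738 and 0.938 for 4930470G03Rik. Of these member reads, 99.8% for Gm15738 and 100% for 4930470G03Rik overlapped no annotated exon of the member, whereas all for Gm20659 did. The ratios thus compare counts under each name, not levels of the annotated lncRNAs.

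Most of the other single-exon reads lay opposite to coding exons. In replicate 1, 1472 of 1767 such reads (83.3%, 81.5% to 85%) had 90% or more of their model's bases inside exons of a coding gene on the opposite strand, and in replicate 2 850 of 1230 (69.1%, 66.4% to 71.7%). Among spliced member reads the share was 1.3% in replicate 1 and 1.41% in replicate 2, and among reads on annotated single-exon transcripts 2.54% and 4.47% in that order. In lincRNA genes, whose type does not ask for an opposite-strand partner, 55.9% of other single-exon reads in replicate 1 and 45% in replicate 2 met the same criterion. The 5 members with most such reads, Gm20659, Gm15738, 4930470G03Rik, Gm15337 and Gm15489, held 56.1% of them. Without those 5 the share was 58.8% in replicate 1 (55.1% to 62.4%) and 37.3% in replicate 2 (33.4% to 41.2%). Counted by gene, 26 of 46 members with 5 or more other single-exon reads in replicate 1, and 19 of 38 in replicate 2, had 50% or more of them inside such exons. An antisense location is part of the members' annotation, so some overlap with coding exons is built into the choice of genes.

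Many of these reads were on models that began at a coding transcript's last base. The 5′ boundary lay within 50 bases of an annotated 3′ end of an opposite-strand coding transcript for 75% of other single-exon reads in replicate 1 (72.9% to 77%) and 46.6% in replicate 2 (43.8% to 49.4%). The distance was exactly 0 for 73.6% in replicate 1 and 46.5% in replicate 2. Among spliced member reads the share within 50 bases was 0.244% in replicate 1 and 0.44% in replicate 2. Among other single-exon reads of lincRNA genes it was 54.1% in replicate 1 (51.8% to 56.3%) and 44.2% in replicate 2 (41.5% to 46.9%), so the trait was not confined to the members. These positions belong to models, not to single reads: 134 models carried all of the other single-exon reads in replicate 1, and 123 in replicate 2. A single model can shift the share. The model with most Gm15738 reads began 0 bases from the Mrtfb 3′ end in replicate 1, where it held 257 reads, and 506 bases inside it in replicate 2, where it held 149. How the 5′ boundaries of the deposited models were set is not given in the sources used here, and 6 member models, with 33 reads, are only 1 base long.

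**Figure D2:**
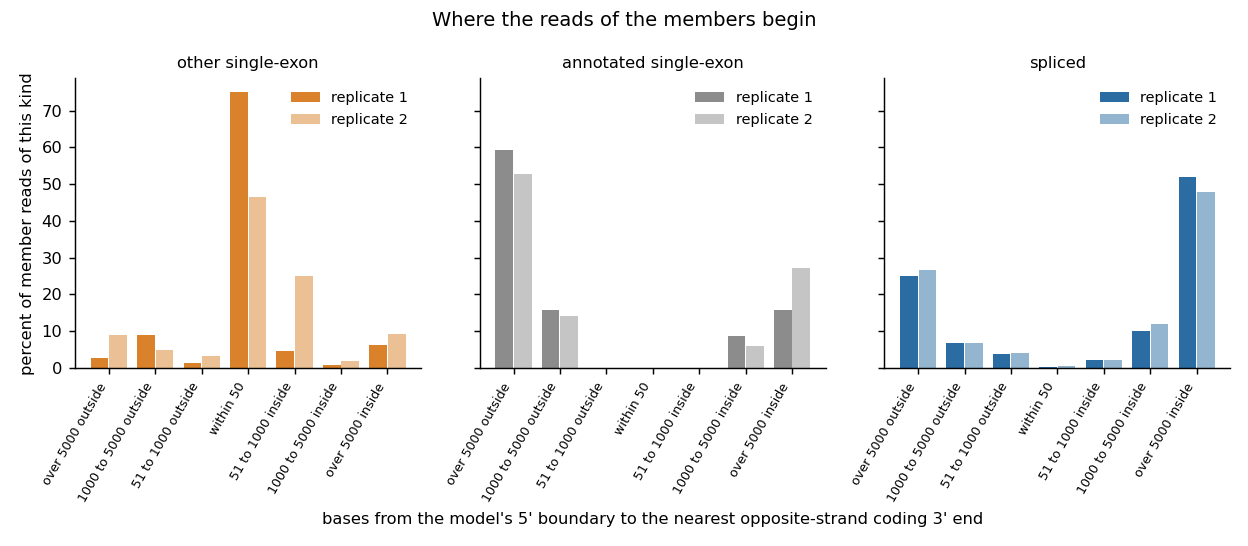
Share of member reads (percent) by the distance in bases from their model's 5′ boundary to the nearest annotated 3′ end of a coding transcript on the opposite strand, with replicate 1 left of replicate 2 in each bin and 1 panel per kind of read. The bin within 50 bases holds 75% and 46.6% of the other single-exon reads and under 1% of the spliced reads; "inside" means upstream of that 3′ end within the coding transcript.

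Further members had nearly all of their reads inside opposite-strand coding exons. All reads of Gm15489, 62 in replicate 1 and 43 in replicate 2, lay inside exons of Dctn5, a dynactin subunit gene with 85 and 73 reads. Gm48091 had 74 reads in replicate 1 and 29 in replicate 2 inside exons of Opcml, a neuronal cell adhesion gene with 52 and 76. Gm15337 had 78 of 79 reads in replicate 1 and 60 of 63 in replicate 2 inside exons of Arhgap26, a GTPase activator gene with 44 and 18. None of these 3 had more than 3 spliced reads in a library. They differed at the 5′ boundary: within 50 bases of a coding 3′ end lay all reads of Gm15489 and all of Gm48091 in replicate 1, but 2 of 29 Gm48091 reads in replicate 2 and 0 Gm15337 reads in either library. Most reads of Gm15738, 4930470G03Rik, Gm15337, Gm15489 and Gm48091, at least 97.2% of each member's reads, missed every annotated exon of the member they were counted for. Over all members, 75% of reads in replicate 1 and 78.2% in replicate 2 overlapped an annotated exon of their own gene, among spliced reads 99.3% and 98.9%. Every member read was on a model of its gene's strand, but whether the library preparation kept the strand of the RNA is not given in the sources used here. Without strand, unspliced reads of a gene and of its antisense partner cannot be told apart. Loci that TALON classed as new antisense genes, which are not members, held 5.34% of all reads in replicate 1 and 3.02% in replicate 2; the part of these library-wide differences in the members' unspliced counts was not tested.

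Not every unspliced member had its reads inside opposite-strand coding exons. Gm15494, which overlaps the start of Eps8l1, had 34 other single-exon reads of 41 in replicate 1 and 53 of 59 in replicate 2, none of them 90% or more inside opposite-strand coding exons. Eps8l1, a gene related to the epidermal growth factor receptor substrate Eps8, had 4 reads in replicate 1 and 6 in replicate 2. Gm10501 overlaps the 3′ end of the heat shock gene Hspa1l and shares 1778 exonic bases with it. It had 15 of 16 reads of this kind in replicate 1 and 21 of 22 in replicate 2. Of these, 3 and 0 lay 90% or more inside such exons, and Hspa1l had 1 read in each library. Gm12709 overlaps the 3′ end of Sgip1 and shares 469 exonic bases with it. Of its reads, 2 of 28 in replicate 1 and 0 of 8 in replicate 2 lay 90% or more inside such exons. Over both libraries, 99 of the 100 reads of Gm15494 and all 36 of Gm12709 also missed every annotated exon of their own member, whereas those of Gm10501 all overlapped one.

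All 138 members had a coding gene on the opposite strand that overlapped them or started within 1000 bases. The position relative to that partner went with how much of a member's reads was spliced. Of 17 members that diverge from the partner without overlap, 12 were mostly spliced and 0 were mostly of the other single-exon kind. Where the 5′ ends overlap, the counts were 32 and 4 of 45 members, and where the member contains the whole partner 5 and 1 of 6. Where the 3′ ends overlap, 19 members were mostly spliced and 26 mostly other single-exon, of 47, and where the member lies within the partner 10 and 9 of 23. Summed over reads, 55.7% were spliced in divergent pairs, 72.5% with overlapping 5′ ends, 62% in members that contain the partner, 27.9% with overlapping 3′ ends and 11.3% in members within the partner. The last value rests largely on Gm20659, which held 865 of those 1356 reads. Without the member with most reads in each position, the shares were 74.8% in divergent pairs, 64.5% with overlapping 5′ ends, 54.2% in members that contain the partner, 34% with overlapping 3′ ends and 30.8% within the partner. This is a description over genes with no test. Exons of the member and the partner shared bases in 106 pairs, with a median of 328.5 bases among them.

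**Figure D3:**
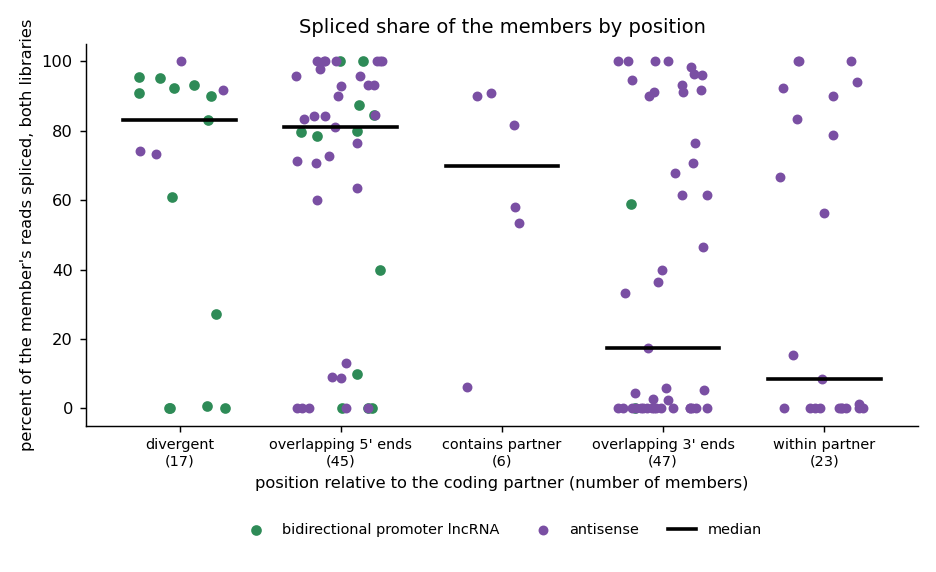
Percent of each member's reads that were spliced (both libraries summed) by its position relative to the coding partner; points are members, green for bidirectional and purple for antisense, and bars are medians. The medians are 83.2% in divergent pairs, 81% with overlapping 5′ ends, 69.9% in members that contain the partner, 17.4% with overlapping 3′ ends and 8.51% within the partner.

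Coding partners mostly outnumbered the members. The median partner had 65.5 reads over both libraries, and the median ratio of partner to member reads was 2.29. Nonetheless, 39 members had more reads than their partner over both libraries, 30 of them in each library separately, and 29 of the 39 were mostly spliced. With genomic reads and incomplete matches left out, 55 members had more reads than their partner, so this count depends on the classes of read kept. At the other end stood 0610009L18Rik, which starts 136 bases from the cytoplasmic actin gene Actg1. It had 23 reads in replicate 1 and 20 in replicate 2, a level of 16.0 ± 1.88 CPM (n = 2), against 4032 and 6032 reads for Actg1. Gm9828, across from the translation and transcription factor gene Btf3, had 17 reads in replicate 1 and 22 in replicate 2, against 289 and 368. For 5 members the partner had no read.

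**Figure D4:**
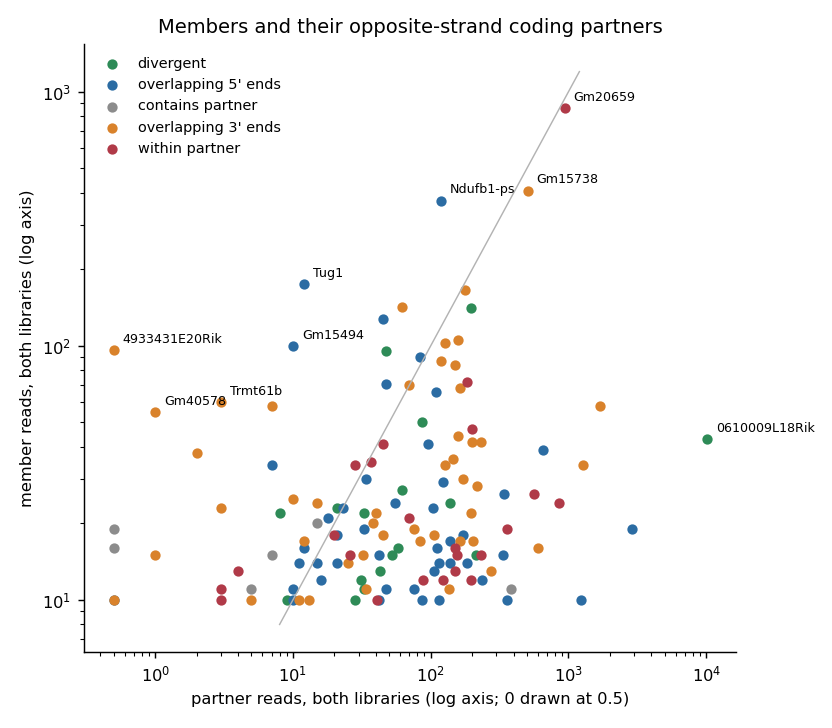
Reads of each member (vertical, log axis) against reads of its opposite-strand coding partner (horizontal, log axis; 0 drawn at 0.5), both libraries summed, coloured by position; the grey line marks equal numbers. Gm20659 and Gm15738 lie close to the line, Tug1 and Ndufb1-ps above it, and 0610009L18Rik far to the right of it.

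Whether the balance within a pair differed between the libraries was tested on the pair's reads by Fisher's exact test, two-sided. Of the 118 member pairs with 10 or more reads on both genes, 10 passed at an adjusted p of 0.05, beside 21 of 216 pairs (9.72%) of any noncoding gene with such a partner. The lowest p was that of Gm20652 and Arhgef2, a pair whose member reads lie in another gene, Syt11, as described with the differences between the libraries. Gm48091 made up 58.7% of the reads of its pair with Opcml in replicate 1 and 27.6% in replicate 2 (Fisher's exact test, adjusted p = 0.00015). AC109619.1, opposite to Macrod1, had 13 reads in each library, against 90 Macrod1 reads in replicate 1 and 474 in replicate 2 (adjusted p = 0.00302, same exact test). With genomic reads and incomplete matches left out, 0 of the 52 pairs that could still be tested passed Fisher's exact test after adjustment, and 1 had an unadjusted p under 0.05. Fewer reads and pairs enter this setting, and the share over all noncoding genes is not given for it. The part of the left-out reads in the 10 calls was thus not tested.

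Splicing gave 18 unannotated models that were read 2 or more times in each library, in 15 members, out of 309 unannotated spliced models of the members in all. The most abundant belonged to 9330151L19Rik, whose start region overlaps that of Dnaaf2, a gene needed to assemble the dynein arms of cilia. Its only annotated transcript has 2 exons, with 18 reads in replicate 1 and 29 in replicate 2. An unannotated chain of 4 exons (chr12:69197211-69201773, plus strand) had 15 reads in each library. It uses 2 introns that the annotation lacks, chr12:69198394-69199338 and chr12:69199539-69201493, and ends 1906 bases past the annotated end. A shorter chain of 3 exons with the second of these introns had 2 reads in each library.

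A930015D03Rik had 13 reads in replicate 1 and 15 in replicate 2 on an unannotated 2-exon model with the intron chr17:35994561-36007399. This was its leading model, with 50% and 65.2% of its reads outside the genomic class. Gm40578 had most of its spliced reads on unannotated chains, 23 in replicate 1 and 25 in replicate 2, of which 2 chains were read 2 or more times in each library. Gm5089, antisense to the mitochondrial enzyme gene Clybl, had 19 of 20 reads in replicate 1 and 14 of 14 in replicate 2 on unannotated chains. A chain of 4 exons had 6 reads in replicate 1 and 5 in replicate 2, and one of 3 exons had 5 and 2. Both begin with an exon at chr14:122451051-122451115, upstream of the annotated start. Dinucleotides at the ends of these introns were not analysed here.

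The leading transcript model was compared between the libraries for the 18 members with 20 or more reads outside the genomic class in each. None passed Fisher's exact test at an adjusted p of 0.05, beside 196 of 6262 genes (3.13%), and 1 did at an unadjusted p under 0.05. That was 2810468N07Rik, whose annotated 2-exon transcript held 58.6% of such reads in replicate 1 and 83.9% in replicate 2 (exact test, p = 0.0448, adjusted p = 0.459). Ndufb1-ps-203 held 87.4% in replicate 1 and 82.4% in replicate 2, and Cep83os-201 held 82.1% and 69% in that order. At 20 to 214 reads per member and library, small shifts were not detectable. For 2810013P06Rik, Zbtb11os1 and B230334C09Rik, 1 annotated single-exon transcript held 100% of such reads in both libraries, so the test could show nothing. With 3.13% called over all genes, 0 of 18 does not set the members apart.

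A list of 26 lncRNAs known from the brain or from development was also followed. Of these, 18 had a read, 13 are of the antisense or bidirectional type, and 3 were members. Dlx6os1, transcribed across the interneuron homeobox gene Dlx6, had 10 reads in replicate 1 and 9 in replicate 2, and Dlx6 had none. Emx2os, antisense to Emx2, a homeobox gene of hippocampal development, had 8 reads in replicate 1 and 6 in replicate 2, against 6 and 5 for Emx2. Kcnq1ot1, the imprinted antisense RNA within Kcnq1, had 4 reads in replicate 1 and 9 in replicate 2, against 3 and 1 for Kcnq1. Of the 10 that had enough reads to be tested between the libraries, 0 passed Fisher's exact test after adjustment, 0 had an unadjusted p under 0.05, and edgeR called 0. Over all genes Fisher's exact test called 5.95% and edgeR 0.412%, so 0 of 10 does not set these genes apart. Prox1os, outside the list and named after its values were seen, overlaps the start of Prox1, a transcription factor gene of dentate granule cells. It had 16 reads in replicate 1 and 8 in replicate 2, against 29 and 26 for Prox1.

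Between the libraries, 12 members (8.7%) passed Fisher's exact test of replicate 1 over replicate 2 (two-sided), with p-values adjusted over all 11891 annotated genes with 10 or more reads, of which 707 (5.95%) passed. This test compares the libraries, not conditions, and allows for counting error only. Of the 12, 9 were higher in replicate 1 and 3 were lower, and 19 members were at an unadjusted p under 0.05. edgeR's exact test with a common dispersion, estimated from these same 2 libraries, called 1 member, Gm20652, beside 49 of 11891 genes (0.412%), and had 15 members at an unadjusted p under 0.05. Among lincRNA genes 16 of 130 passed Fisher's exact test, and among protein-coding genes 630 of 10878.

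Of these 12 calls, 8 belonged to members that were mostly of the other single-exon kind. Gm20659, at 408 CPM in replicate 1 and 236 CPM in replicate 2, had a log2 ratio of 0.79 (95% interval 0.59 to 1.00; Fisher's exact test, adjusted p = 3.95e-13). Gm15738 had a log2 ratio of 0.82 (0.53 to 1.12; adjusted p = 1.49e-06 by the same exact test) and 4930470G03Rik one of 1.17 (0.69 to 1.67; adjusted p = 3.35e-05). Gm48091 had a log2 ratio of 1.39 (adjusted p = 0.000222, exact test); its level was 55.6 CPM in replicate 1 and 21.2 CPM in replicate 2. Gm12709 (28 reads in replicate 1 and 8 in replicate 2), Gm26827 (16 and 2) and Gm17035 (14 and 1) were also higher in replicate 1, with intervals of the log2 ratio from 0.67 to 3.19, 0.95 to 6.20 and 1.13 to 9.25.

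Gm20652 (chr3:88616457-88621061, minus strand) had 0 reads in replicate 1 and 72 in replicate 2, so it was at least 23.4-fold lower in replicate 1 against the floor of 3 reads for that library. None of those reads overlapped an exon of Gm20652. Of the 72, 71 were on a single-exon model 125548 bases upstream of it, inside exons of Syt11, a synaptotagmin gene on the same strand, which had 430 reads in replicate 1 and 485 in replicate 2 under its own name. It was the only member with any read 90% or more inside exons of another coding gene on its own strand.

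Of the mostly spliced members, 3 passed. Tug1 was higher in replicate 1, at 94.0 CPM against 36.6 CPM in replicate 2, a log2 ratio of 1.36 (0.88 to 1.86; Fisher's exact test, adjusted p = 3.08e-07). With genomic reads and incomplete matches left out its log2 ratio was 1.69. Ndufb1-ps was at 161 CPM in replicate 1 and 116 CPM in replicate 2, a log2 ratio of 0.47 (0.16 to 0.77; exact test, adjusted p = 0.0394), a call that was lost with no minimum on reads (adjusted p = 0.0611, same exact test). Gm10649, across from the mineralocorticoid receptor gene Nr3c2, had 1 read in replicate 1 and 13 in replicate 2, a log2 ratio of -3.66 with an interval from -9.07 to -0.93, at an adjusted p of 0.0352 by Fisher's exact test. Without genomic reads its log2 ratio was -3.10 and the call was lost (adjusted p = 0.179, same exact test), as it was with no minimum on reads (adjusted p = 0.0546) and by edgeR (adjusted p = 0.411). 2610306M01Rik, whose single annotated exon starts 77 bases from the endocytic kinase gene Aak1, had 4 reads in replicate 1 and 20 in replicate 2, a log2 ratio of -2.28 (-4.29 to -0.71; exact test, adjusted p = 0.0317).

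**Figure D5:**
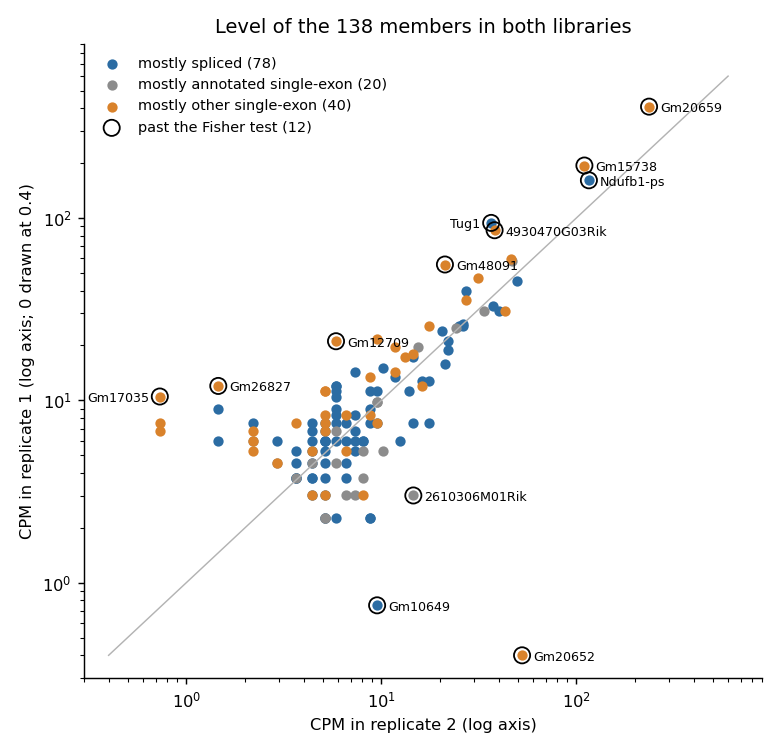
CPM of the 138 members in replicate 1 (vertical, log axis; 0 drawn at 0.4) against replicate 2 (horizontal, log axis), coloured by the kind of read that holds 50% or more, with circles round the 12 members past Fisher's exact test. Of the 40 mostly other single-exon members, 31 lie above the grey line of equal CPM, and Gm20652 lies at the bottom with 0 reads in replicate 1.

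The tilt toward replicate 1 went with the kind of read. The median log2 ratio was 0.18 over all members, 83 of which had the higher CPM in replicate 1, beside -0.05 over all genes tested. It was 0.60 over the 40 mostly other single-exon members, 31 of them higher in replicate 1, and 0.04 over the 78 mostly spliced members, 42 of them higher in replicate 1. These groups were set by the same reads that enter the ratios. Other single-exon member reads numbered 1767 in replicate 1 and 1230 in replicate 2. Without genomic reads only 91 members reached 10 reads. A tilt of the mostly other single-exon group is thus partly built in. The summed choroid plexus markers and the single-exon share of the whole library were also higher in replicate 1, and their part in these ratios was not tested.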

How the data were processed

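For each library the authors deposited a table of raw counts, the number of long reads on every transcript model, without normalization. Models were made with TALON, per the file headers, on build mm10 with GENCODE M21, per the deposited description files. No source used here gives the aligner, the TALON version, the platform or the filters. Exon coordinates came from the deposited annotations, read as 1-based. The members and gene lists were chosen with earlier results of these data known.

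Counts of all classes were summed per gene. CPM used all reads of a library, so that 1 read is 0.752 CPM in replicate 1 and 0.732 CPM in replicate 2. Positions, types and partners came from GENCODE M21; the partner is the opposite-strand coding gene that overlaps or starts within 1000 bases. Each gene with 10 or more reads was tested by Fisher's exact test in scipy 1.17.1, with p-values adjusted by Benjamini-Hochberg and a threshold of 0.05. It was run on simulated counts with sampling noise only, so that check does not measure false calls in these libraries. Other settings used edgeR 4.0.16 and DESeq2 1.42.0. With 2 libraries, mean ± SD has n = 2. Over all genes the counts differed by more than sampling noise (chi-square per degree of freedom 4.74), so the libraries were kept apart. By symbol, 74 members matched the RefSeq promoter table; intervals between starts were taken where a window of that table held them.

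Genes named are the 12 antisense and 8 bidirectional members of highest mean CPM, all that passed Fisher's exact test, the 6 highest ratios to the partner among members with 20 or more reads, the 4 with most unannotated spliced reads, members of the list of 26, and some others chosen after their values were seen.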

Additional observations from a re-analysis of the deposited data

How the results depend on the processing

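No paired analysis was possible because the labels give 1 group. The 12 calls between the libraries stayed 12, the same genes, with edgeR's TMM library sizes, which move log2 ratios by 0.04, and with DESeq2 size factors. Over all 11891 genes those settings called 659 and 656, in that order. With no minimum 10 calls were left of 925 genes of these types, beside 602 of all 18595 genes. With a minimum of 20 reads 9 of 65 members were called, beside 702 of 9912 genes. Without genomic reads 4 of 91 members were called, beside 706 of 10814 genes. Without genomic and incomplete reads it was 3 of 80, beside 519 of 9143 genes. Fewer reads and genes enter these last settings. edgeR's exact test called 1 of 138 members, beside 49 of 11891 genes. The number of members was 65 with a minimum of 20 reads, 268 with a minimum of 5, 91 without genomic reads, 80 without genomic and incomplete reads, and 68 to 74 from 1 library alone. The share of all reads was 0.196% to 0.246% from 1 library alone and 0.121% without genomic reads. The spliced share of member reads was 37.5% to 42.4% from 1 library alone, and 65% as a median over members, each counted equally. Own-exon overlap was 75% to 78.2% from 1 library alone. Members with more reads than their partner numbered 39, against 35 to 43 from 1 library alone and 55 without genomic and incomplete reads. Pairs whose balance was called fell from 10 of 118 to 0 of 52 without genomic and incomplete reads, a setting chosen after seeing the data, as were the next 2. The share of other single-exon reads inside opposite-strand coding exons, 76.2% as a mean of both libraries, was 77.4% when 50% of the bases sufficed and 76% when all had to lie inside. Splice site dinucleotides were not run. Members near 10 reads rest on few reads, so only large differences could pass.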
